A study of Rattus norvegicus with 8 samples.

Results

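The genes described here encode molecular chaperones: heat shock proteins of the HSP90, HSP70, HSP110 and small HSP classes, the J-domain co-chaperones of the DNAJA, DNAJB and DNAJC classes, and the chaperonins. They were taken from the expression table by symbol, as names that start with Hsp followed by a, b, d, e or h, Hsp90, numbered Dnaja, Dnajb and Dnajc genes, Cct2 to Cct8, Tcp1 and Cryab. This gave 85 rows with 83 symbols, of 32883 rows in all. RNA sequencing had been done on cultured oligodendrocyte precursor cells (OPCs), the dividing glia that give rise to myelinating cells, from cerebral cortex of Sprague Dawley rats aged 1 to 2 days. One group of 4 libraries came from male and one of 4 from female animals, and sex is the only factor that differs between them in the labels. All 8 cultures were first grown as mixed glia with 20% serum. Cells that did not adhere were then kept for 4 to 5 days in Neurobasal medium with 2 mM glutamine, 2% B27, PDGF and FGF (each at 10 ng/ml), antibiotics and no heat or other stress treatment in the labels. The labels do not say whether animals were pooled or libraries came from separate litters, and each p-value therefore reflects only how far these samples spread, which may be technical.

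Chaperones bind unfolded or partly folded proteins and use ATP to help them reach their native form. An HSP70 takes up a client delivered by a DnaJ protein, which triggers ATP hydrolysis through its J domain, and releases it when an exchange factor such as an HSP110 replaces the nucleotide. HSP90 acts later, on kinases and receptors that are nearly folded, and chaperonins enclose their clients in a barrel. The cytosol, the endoplasmic reticulum (ER) and mitochondria each have their own set. Cells that make myelin load the ER with membrane proteins and lipids, and ER stress is much studied in this lineage. Stress raises the cytosolic and mitochondrial sets through heat shock factors, which bind heat shock elements, and the ER set through factors that bind ER stress response elements.

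The promoters of some members carry these elements, and they are shown because the kinds of element found differ between compartments. Of the 83 symbols, 67 matched the RefSeq promoter table of build GRCr8, which holds 33469 promoters. The 250 bases before each gene's start were searched on both strands. A heat shock element was taken as 3 alternating units, GAA, TTC and GAA, with 2 free bases between neighbours, and matches on the 2 strands can overlap. It was in 4 of the 67 member promoters (5.97%) and in 0.663% of all promoters. The 4 were Hspa8 (chr8:50080276-50080496, plus strand), Hsph1 (chr12:10427307-10427367, plus strand), and Hspd1 and Hspe1, which lie head to head with starts 290 bases apart and share 1 site. It is shown for Hspe1 (chr9:64084237-64084304, plus strand) and, read on the opposite strand, for Hspd1 (chr9:64084237-64084287, minus strand). With the 50 bases after the start included, Cct4 and Dnaja1 also had a match (6 of 67, against 0.798% of all promoters). An ER stress response element was taken as CCAAT and CCACG with 9 free bases between them. It was in 3 of the 67 (4.48%), all of them genes of ER proteins, and in 0.0657% of all promoters. They were Hspa5 (chr3:38452948-38453015, plus strand), Hsp90b1 (chr7:23012322-23012494, minus strand) and Dnajc3 (chr15:102432509-102432577, plus strand). The stretches are written 5′ to 3′ on the strand of the gene with the matches in capitals. A match is a description of the letters and not a measured binding site.
Hspa8: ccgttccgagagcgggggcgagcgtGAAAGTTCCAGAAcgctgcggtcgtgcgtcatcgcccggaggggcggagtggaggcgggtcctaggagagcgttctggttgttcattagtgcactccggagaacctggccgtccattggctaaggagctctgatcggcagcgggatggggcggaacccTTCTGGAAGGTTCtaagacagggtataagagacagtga
Hsph1: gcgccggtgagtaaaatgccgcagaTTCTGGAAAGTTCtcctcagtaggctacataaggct
Hspe1: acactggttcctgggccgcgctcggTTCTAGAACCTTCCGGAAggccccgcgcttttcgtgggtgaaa
Hspd1: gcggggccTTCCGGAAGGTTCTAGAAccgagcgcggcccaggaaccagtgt
Hspa5: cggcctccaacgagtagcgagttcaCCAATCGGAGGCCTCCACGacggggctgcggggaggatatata
Hsp90b1: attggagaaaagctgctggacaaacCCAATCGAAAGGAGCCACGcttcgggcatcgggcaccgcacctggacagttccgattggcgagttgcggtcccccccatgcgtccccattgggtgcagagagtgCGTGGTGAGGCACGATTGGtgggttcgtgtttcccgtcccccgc
Dnajc3: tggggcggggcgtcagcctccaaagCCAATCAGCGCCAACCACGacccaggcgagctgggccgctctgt

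Values are FPKM, fragment counts scaled by gene length and library size. The scaling is meant to let levels of different genes be set side by side. With the FPKM program and its treatment of reads shared between copies unknown, ratios between genes describe listed values only. The deposited sums were 648383 to 773919 FPKM per library, and the steps between low values gave depths of 0.303 to 1 relative to male 1, with no absolute depth. The Y-linked gene Eif2s3y was at 62.7 to 77.9 FPKM in male libraries and listed at 0 in all female ones, as the labels state. Summed OPC markers (7 genes) were high in every library, at 2018 to 2134 FPKM in male and 2429.98 to 2683 FPKM in female cultures. Markers of endothelium and of fibroblasts and meninges summed to at most 0.277 FPKM. The 11 microglia markers found summed to 34.8 to 49.4 FPKM in male and 136 to 162 FPKM in female cultures, with Ptprc, a leukocyte marker, under 1 FPKM on average, and the 10 neuron markers to 339 to 378 and 313 to 437 FPKM. The neuron sum was mostly Map2, Dcx and Tubb3, and 4 of the other neuron markers were higher in every male library, namely Gad1, Gad2, Syt1 and Stmn2. The 7 astrocyte markers summed to 109 to 139 FPKM in male and 94.7 to 110.1 FPKM in female libraries, and the 6 myelin markers to 541 to 631 and 655 to 789 FPKM. A bulk level cannot tell more cells of a type from more RNA per cell, and the part of these other cells in any result below was not tested.

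Of the 85 rows, 66 had a mean of at least 1 FPKM and were tested, 11 were lower but above 0 in some library, and 8 were listed at 0 in all 8 libraries. Some chaperones were among the most abundant transcripts. A total of 17 had a mean of at least 100 FPKM, and Hsp90ab1, Hspa8 and Hspe1 ranked 69, 105 and 129 among all 32883 genes. Among the 66, the highest library was under 1.5 times the lowest for 41. For 9 it was over 2 times, 7 of them genes with a mean under 10 FPKM, where few reads make a value less precise.

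**Figure D1:**
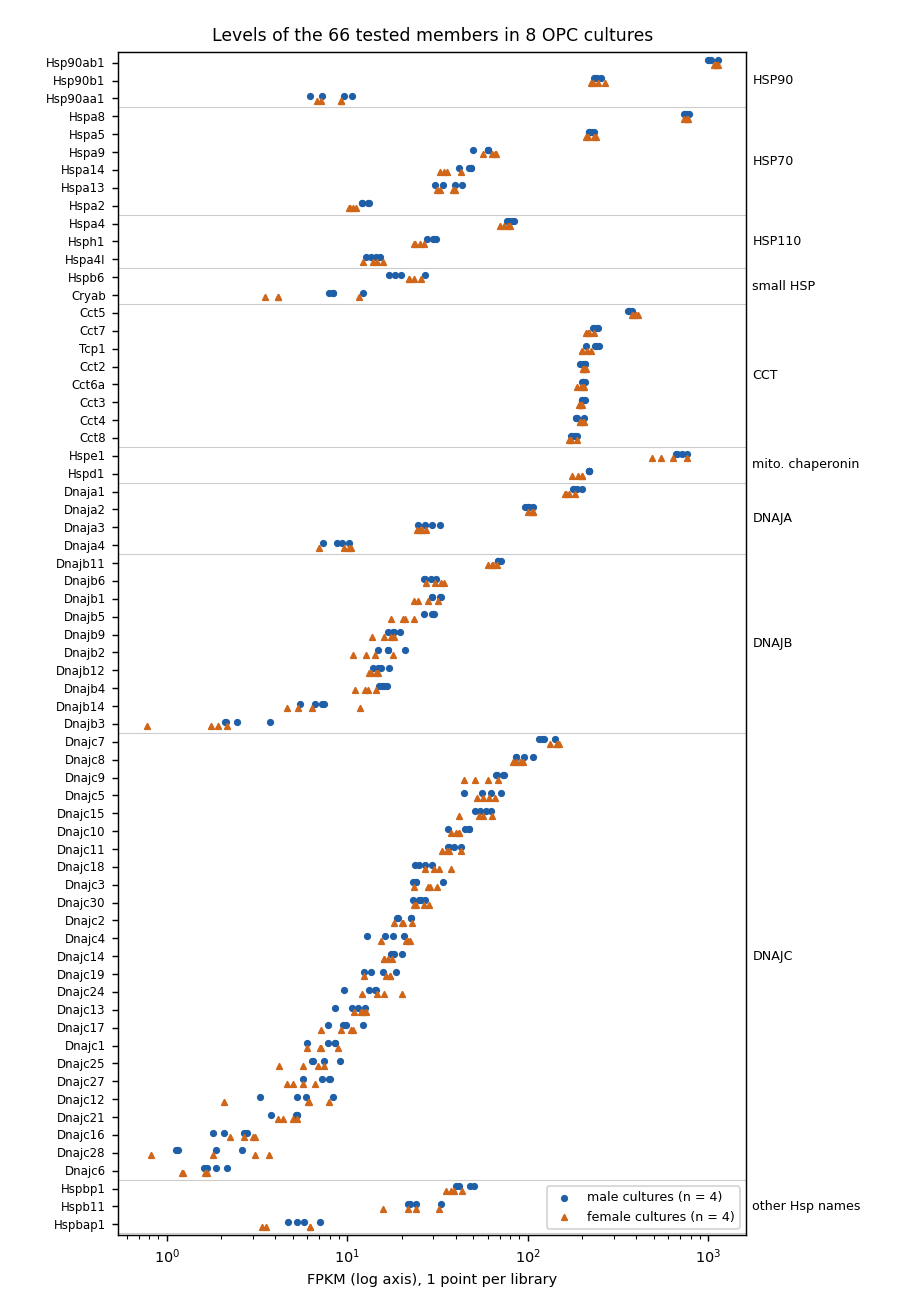
Level of each of the 66 tested members in each library, in FPKM on a log axis, grouped by class, with male cultures as circles and female cultures as triangles. The 8 CCT genes lie close together between 170.2 and 407 FPKM, while the DNAJC genes spread from below 1 to 148 FPKM.

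Among the members, those of the cytosol and nucleus held most of the summed level in all 8 cultures. Their 52 rows summed to 4557 FPKM in the lowest, 4655 in the median and 4857 in the highest library, which was 69.6% to 72.5% of the summed level of all members. The 9 mitochondrial members summed to 1199.9, 1106, 1104 and 1157 FPKM in male 1 to male 4 and to 897, 981, 1183 and 1037 FPKM in female 1 to female 4. The 13 ER members summed to 750.3, 722, 724 and 744 FPKM in the male and 771, 721, 696 and 731 FPKM in the female libraries. The order cytosol, mitochondria, ER held in every library. The place of mitochondria above the ER depended on Hspe1, at 487 to 759 FPKM, and in female 1 on Hspd1 (189 FPKM) as well. Without Hspe1 the mitochondrial sum was below the ER sum in every library. Whether length scaling or shared reads affected the Hspe1 level, and so the place of mitochondria above the ER, was not tested. The cytosolic and ER sums overlapped between the sexes, with means of 4681 ± 126 against 4663 ± 74.0 FPKM and 735 ± 14.1 against 729.9 ± 30.97 FPKM (SD, n = 4). The mitochondrial sum was 1142 ± 45.9 FPKM in male and 1024 ± 120.5 FPKM in female cultures. Female 3 was higher than 3 of the 4 male libraries, so these sums overlapped too. The lowest mitochondrial sums, in female 1 and female 2, came from the libraries with the lowest relative depth (0.303 and 0.367), while female 3 had a relative depth of 0.981. The part of depth in these sums was not tested. No test is given for sums over chosen genes. The sums cover only genes matched by symbol, with unequal numbers of rows per compartment. Other ER folding genes lie outside them. Examples are Calr, at means of 662 FPKM in male and 675 FPKM in female cultures, Pdia3 (310 and 302 FPKM) and Canx (285 and 295 FPKM).

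**Figure D2:**
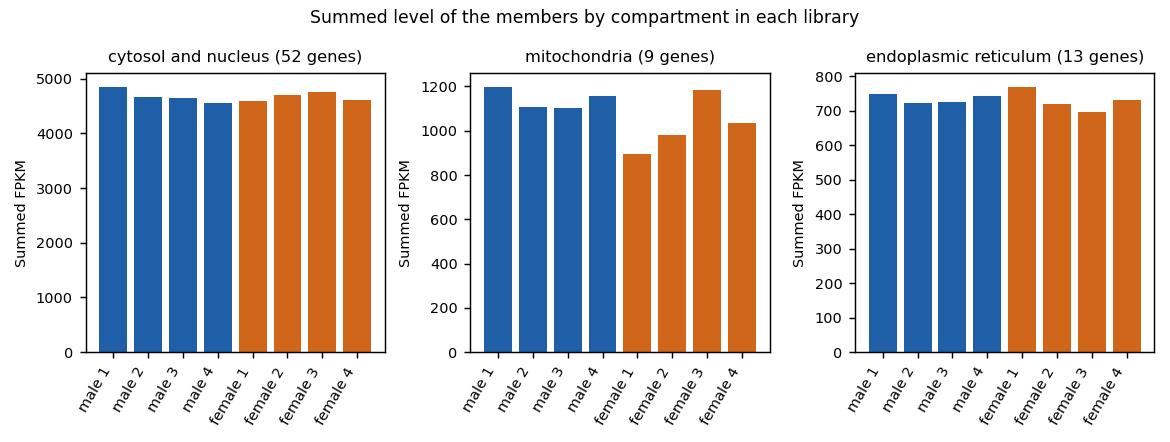
Summed FPKM of the members of each compartment, 1 bar per library (blue male, orange female), each panel with its own axis from 0. The cytosolic sums lie between 4557 and 4857 FPKM in both sexes, and the mitochondrial sums are lowest in female 1 and female 2, at 897 and 981 FPKM.

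In the cytosol 1 HSP90 gene and 1 HSP70 gene were the highest single members, while the 9 CCT rows together summed to 1748 to 1846 FPKM. Hsp90ab1, the constitutive HSP90 beta, stood at 1127, 1036, 1003 and 1009.6 FPKM in male libraries 1 to 4, and at 1127, 1097, 1109 and 1076 FPKM in female libraries 1 to 4. Male 2, male 3 and male 4 lay below all female libraries, and the sexes overlapped only through male 1. The difference did not pass (log2 difference -0.080 ± 0.056 (SE), limma-trend adjusted p = 0.463, 95% interval -0.20 to 0.043). It was -0.12 without male 1 (adjusted p = 0.181) and 0.0005 when libraries were rescaled to a common sum (adjusted p = 0.996). Hspa8, the constitutive HSP70 with the heat shock elements shown above, stood at 785, 755, 739 and 735 FPKM in male libraries 1 to 4, and at 731, 765, 761 and 772 FPKM in female libraries 1 to 4. It varied least of the HSP70 genes, and the difference did not pass (log2 difference -0.0075 ± 0.052 (SE), limma-trend adjusted p = 0.956, 95% interval -0.12 to 0.11). Hsp90ab1 was 1.36 to 1.54 times as high as Hspa8 in each library.

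The stress-inducible forms of the cytosolic HSP90 and HSP70, Hsp90aa1 and Hspa1a, were low or listed at 0. Hsp90aa1, the inducible HSP90 alpha, stood at 6.20, 10.6, 9.57 and 7.24 FPKM in male libraries 1 to 4, and at 9.19, 7.18, 9.24 and 6.83 FPKM in female libraries 1 to 4, which made Hsp90ab1 97.3 to 182 times as high. Hspa1a, the heat-inducible HSP70, was listed at 0 in all 8 libraries. These values are uncertain. Hspa1a has the near-identical neighbour Hspa1b, which has no row under that symbol in the expression table. HSP90 genes have close copies as well. How reads shared by copies were counted is not given in the sources used here, so a listed 0 may be a failed estimate. A second row with the symbol Hspa8 (ENSRNOG00000032585) reached at most 0.283 FPKM. Hspa1l, a testis form next to Hspa1a, reached at most 0.244 FPKM, and the distant relatives Hspa12a and Hspa12b at most 0.340 and 0.976 FPKM.

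Hspa2, another HSP70, was at 10.2 to 13.2 FPKM, and Hspa14, an HSP70-like protein of ribosomes, at 32.8 to 48.7 FPKM. The HSP110 genes, which encode nucleotide exchange factors for HSP70, were led by Hspa4 at 69.9 to 84.02 FPKM, followed by Hsph1 at 23.3 to 30.9 FPKM and Hspa4l at 12.3 to 15.8 FPKM. All 3 HSP110 genes were thus well below Hspa8, with the highest library of Hspa4 at 84.02 FPKM.

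Among the ER members, the HSP90 and the HSP70 were highest, at nearly equal levels. Hsp90b1 (GRP94) stood at 254, 235, 232 and 241 FPKM in male libraries 1 to 4, and at 268, 245, 231 and 225 FPKM in female libraries 1 to 4. Hspa5 (BiP), the ER HSP70 and a sensor of unfolded protein, stood at 232, 219, 218 and 226 FPKM in male libraries 1 to 4, and at 232, 217, 211 and 238 FPKM in female libraries 1 to 4. Both carry the ER stress response element shown above, and Hspa5 was 0.865 to 1.06 times the level of Hsp90b1. Neither passed the test, with 95% intervals of -0.16 to 0.14 for Hsp90b1 and -0.14 to 0.13 for Hspa5 (log2, adjusted p = 0.964 and 0.984). The J-domain partners of BiP were lower. Dnajb11 (ERdj3), a lumenal cofactor, was highest at 60.02 to 71.4 FPKM, then Dnajc10 (ERdj5), a disulfide reductase, at 35.95 to 47.5 FPKM, Dnajc3 (p58IPK), an inhibitor of the stress kinase PERK, at 23.2 to 33.96 FPKM, and Dnajb9 (ERdj4) at 13.7 to 19.5 FPKM. Dnajc3 was 33.96 FPKM in male 1 and 23.2 to 24.1 FPKM in the other 3 male libraries. Hspa13, an HSP70 of microsomes, stood at 30.5 to 43.4 FPKM. Genes of ER membrane J proteins ranged from 2.54 FPKM on average (Dnajc16) to 29.1 FPKM (Dnajc18), and Dnajb14, a cofactor in ER-associated degradation, varied most, at 7.21, 5.46, 7.43 and 6.63 FPKM in male libraries 1 to 4, and at 11.8, 6.40, 4.61 and 5.34 FPKM in female libraries 1 to 4. Female 1 stood alone at the top, and the next library was male 3.

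In mitochondria the chaperonin pair was far above the HSP70. Hspe1, the lid (HSP10) of the chaperonin, stood at 758, 671, 659.8 and 712 FPKM in male libraries 1 to 4, and at 487, 551, 759 and 639 FPKM in female libraries 1 to 4. Hspd1, its barrel (HSP60), stood at 218, 218, 218 and 219.7 FPKM in male libraries 1 to 4, and at 189, 201, 199.6 and 177 FPKM in female libraries 1 to 4. All 4 male libraries of Hspd1 lay within 217.5 and 219.7 FPKM and above all female ones, whereas Hspe1 overlapped because female 3 had the highest value of all. The pair shares the heat shock element shown above, and Hspe1 was 2.58 to 3.80 times as high as Hspd1, with the lowest ratio in female 1 and the highest in female 3. Relative depth was 0.303, 0.367, 0.981 and 0.534 in female libraries 1 to 4, the same order as their Hspe1 levels. In male libraries 1 to 4 it was 1, 0.553, 0.769 and 0.557, where male 1 was highest for both but male 3 was lowest for Hspe1. The part of depth in the Hspe1 spread was not tested, nor was that of length scaling or shared reads in the ratio to Hspd1. Hspa9 (mortalin), which pulls imported proteins into the matrix, stood at 49.8, 59.9, 60.1 and 60.03 FPKM in male libraries 1 to 4, and at 66.2, 66.9, 56.7 and 63.1 FPKM in female libraries 1 to 4, and male 1 was the lowest of all 8. Hspa5 was 3.24 to 4.65 times and Hspa8 11.05 to 15.8 times as high as Hspa9, so the 3 HSP70 compartments kept 1 order in every culture. Among the mitochondrial J proteins, Dnajc15 stood at 41.7 to 63.7 FPKM, Dnajc11 at 33.6 to 42.8 FPKM, Dnaja3 at 24.5 to 32.5 FPKM, Dnajc30 at 23.2 to 28.5 FPKM and Dnajc19, a subunit of the import motor, at 12.3 to 18.5 FPKM. Dnajc28 was the lowest, at 0.817 to 3.71 FPKM.

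The CCT chaperonin folds actin and tubulin in a double ring in which each of 8 subunits occurs once per ring. Its 8 genes varied little between libraries. Cct5 was highest in every library, at 376, 366, 366 and 357 FPKM in male libraries 1 to 4, and at 381, 396, 407 and 377 FPKM in female libraries 1 to 4. The other 7 had means between 178 FPKM (Cct8) and 229 FPKM (Cct7), with Tcp1, the founding subunit, at 221, Cct2 at 204, Cct6a at 201, Cct3 at 199.5 and Cct4 at 195 FPKM. Cct2, Cct3, Cct4 and Cct6a overlapped in their ranges over the 8 libraries, so their order is not beyond the spread. Cct5 was 1.94 to 2.39 times as high as Cct8. The median ratio of highest to lowest library was 1.11 over the 8 genes. All 8 had 95% intervals of the sex difference within 0.5 on the log2 scale. Cct6b, a testis form, was at most 0.340 FPKM, the pseudogene Cct6a-ps2 at most 0.252 FPKM, and both Cct8l1 rows were listed at 0.

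Small heat shock proteins, which hold unfolded proteins without using ATP, were low. Of 8 genes only Hspb6 and Cryab passed the filter. Hspb6 (HSP20) stood at 17.03 to 26.9 FPKM. Cryab, the alpha B crystallin gene known from astrocytes and oligodendrocytes, stood at 8.30, 8.34, 12.2 and 7.95 FPKM in male libraries 1 to 4, and at 11.6, 3.52, 4.13 and 4.14 FPKM in female libraries 1 to 4. Female 1 was about as high as male 3, and the other 3 female libraries lay below all the rest. The log2 difference was 0.69 ± 0.30 (SE) and did not pass (limma-trend adjusted p = 0.217). Without female 1 it passed, at 1.03 (adjusted p = 0.0112). Hspb1 (HSP27) and Hspb8 reached at most 0.835 and 2.05 FPKM, and Hspb2, Hspb3, Hspb7 and Hspb9 were listed at 0 in all libraries.

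The cytosolic and nuclear J proteins start the ATP hydrolysis of HSP70, and their genes varied widely in level. The class A genes Dnaja1 and Dnaja2, general partners of Hspa8, stood at 161 to 199.95 FPKM and 96.6 to 108 FPKM, and Dnaja4 at 7.0 to 10.5 FPKM. In class B, Dnajb1, the main HSP40, was at 23.5 to 33.1 FPKM, Dnajb6, a suppressor of protein aggregation, at 26.7 to 34.2 FPKM and Dnajb5 at 17.6 to 30.1 FPKM. Dnajb8 was listed at 0, and Dnajb7 and Dnajb13 were at or near 0. Of class C, with 26 genes, all but Dnajc22 passed the filter. Dnajc7, which binds both HSP70 and HSP90, was highest at 116 to 148 FPKM. Dnajc8, linked to splicing, stood at 83.1 to 107 FPKM, Dnajc9, a histone chaperone, at 44.3 to 73.4 FPKM, and Dnajc5 (cysteine string protein), a chaperone of secretory vesicles, at 44.4 to 71.1 FPKM. Dnajc6 (auxilin), the neuronal uncoating factor of clathrin vesicles, was the lowest that passed, at 1.22 to 2.16 FPKM. Dnajc12 varied most among those with at least 5 FPKM, at 5.89, 8.32, 5.27 and 3.30 FPKM in male libraries 1 to 4, and at 7.90, 6.03, 6.18 and 2.07 FPKM in female libraries 1 to 4, lowest in male 4 and female 4. A further 3 symbols matched by name without being chaperones of these classes. Hspbp1, an exchange factor for HSP70, was at 35.2 to 50.4 FPKM, Hspb11 (Ift25), a cilium transport protein, at 15.9 to 33.1 FPKM, and Hspbap1 at 3.35 to 7.10 FPKM.

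Between male and female cultures, few of these genes passed the test. A positive difference means a higher male level, in units of log2(FPKM + 1), a scale that understates changes of low genes. It came from limma-trend fitted on all 11263 genes that averaged 1 FPKM or more. Of the 66 tested members 1 passed (Benjamini-Hochberg adjusted p under 0.05 over all genes), higher in male cultures, and none was higher in female ones. The share of all tested genes that passed was 6.04%, made up of 3.14% with the higher level in male cultures and 2.89% with it in female ones. At an unadjusted p under 0.05 there were 14 members (21.2%), 12 of them higher in male cultures, beside 21.2% of all genes. Male and female values did not overlap for 7 members (10.6%, against 14% of all tested genes), 6 with male higher (7.26% of all genes) and 1 with female higher (6.77%). The median log2 difference was 0.060 over the members and -0.0038 over all genes, and 42 of 66 members and 5557 of 11263 genes had a positive difference. For 48 of the 66 members the 95% interval lay within 0.5 on the log2 scale, as it did for 6212 of all 11263 genes.

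Dnajb5, an HSP40-type co-chaperone of the cytosol, was the member that passed. It stood at 29.5, 26.7, 30.02 and 30.1 FPKM in male libraries 1 to 4, and at 20.3, 20.9, 23.3 and 17.6 FPKM in female libraries 1 to 4. All male values were above all female ones, and the means were 29.1 ± 1.61 against 20.5 ± 2.36 FPKM (SD, n = 4), a ratio of 1.42 (log2 difference 0.49 ± 0.097 (SE), limma-trend adjusted p = 0.0152). Over the 10 tested class B genes, 9 had a positive difference (90%, beside 49.3% of all tested genes), the median was 0.18 (beside -0.0038) and 3 did not overlap, all with male higher (30%, beside 7.26%). Dnajb5 itself is counted in these shares. The other J-protein classes did not show them, with a positive difference in 2 of 4 class A genes (50%) and 14 of 25 class C genes (56%). In both of those classes 0 genes were without overlap. These shares are a description of small classes and were not tested. The Dnajb5 call ended without male 3 (adjusted p = 0.0539) and with relative depth as a covariate (0.44, adjusted p = 0.0512), with adjusted p from 0.00566 to 0.0539 over 18 alternatives. In the same cultures microglia markers summed to 34.8 to 49.4 FPKM in male and 136 to 162 FPKM in female libraries. Among neuron markers Gad1 averaged 19.2 against 3.93 FPKM, Gad2 8.94 against 3.02 FPKM and Syt1 21.0 against 11.7 FPKM, male against female, without overlap. Stmn2 and Snap25 also averaged higher in male cultures. Dcx (69.8 against 80.9 FPKM), Map2 (150 against 169 FPKM), Tubb3 and Rbfox3 averaged higher in female cultures. The summed neuron markers overlapped, at 339 to 378 FPKM in male and 313 to 437 FPKM in female libraries. Summed OPC markers were lower in male than in female libraries, at 2018 to 2134 against 2429.98 to 2683 FPKM, and all of them averaged lower, among them Gpr17 (43.1 against 143 FPKM). Summed myelin markers were lower too, at 541 to 631 against 655 to 789 FPKM. The part of microglia, neurons or cells of the OPC lineage in the Dnajb5 difference was not tested.

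**Figure D3:**
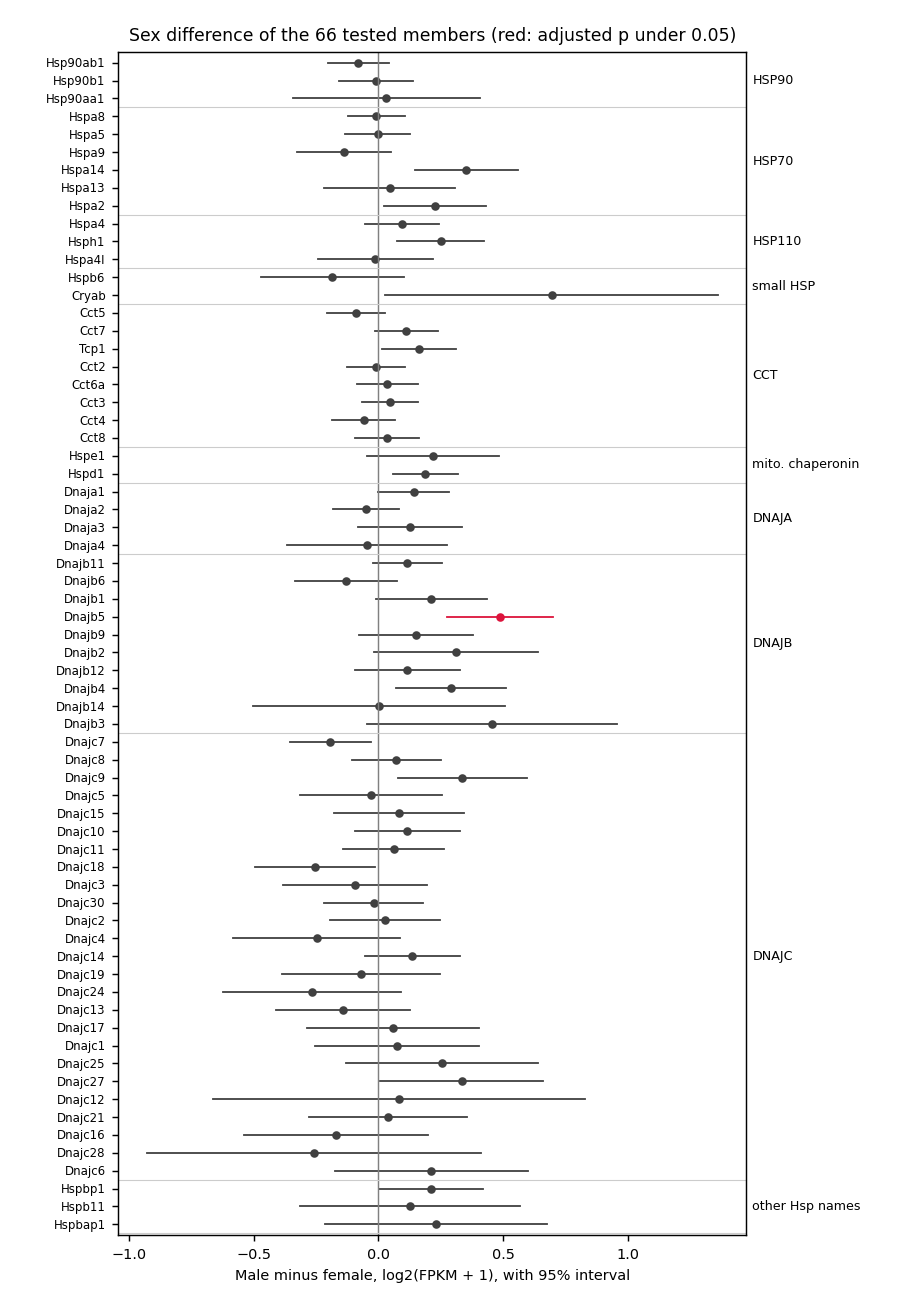
Log2 difference, male minus female, of each tested member with its 95% interval from limma-trend, grouped by class, with the gene that passed in red. Only Dnajb5, at 0.49, passed, the intervals of Hsp90ab1, Hsp90b1, Hspa8 and Hspa5 include 0, and that of Tcp1 runs from 0.014 to 0.31.

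Of the 14 members with an unadjusted p under 0.05, 11 belong to the cytosol and nucleus, which holds 39 of the 66 tested members. This is 28.2% of those 39, beside 21.2% of all tested genes, and the shares were not tested. Hspa14 stood at 48.6, 47.1, 48.7 and 41.8 FPKM in male libraries 1 to 4, and at 32.8, 34.4, 42.7 and 35.6 FPKM in female libraries 1 to 4, with female 3 just above male 4 (log2 difference 0.35 ± 0.094 (SE), limma-trend adjusted p = 0.0512). It passed without male 1 and female 3 together, and without female 3 alone (adjusted p = 0.0141). Hspd1 averaged 218 ± 1.06 against 192 ± 11.1 FPKM (log2 difference 0.19 ± 0.059 (SE), limma-trend adjusted p = 0.0892). Hsph1 stood at 27.7, 30.9, 29.7 and 30.3 FPKM in male libraries 1 to 4, and at 25.4, 26.6, 23.8 and 23.3 FPKM in female libraries 1 to 4, with no overlap (log2 difference 0.25 ± 0.079 (SE), limma-trend adjusted p = 0.0933). The class B gene Dnajb4 (0.29, adjusted p = 0.119), Hspa2 (0.23, adjusted p = 0.191) and the ER gene Dnajb11 (0.12, adjusted p = 0.328) also had male values above all female ones. Together with Dnajb5, Hspd1 and Hsph1 they make the 6. Cct5 was the reverse, at 367 ± 7.73 against 390.1 ± 13.8 FPKM (-0.089, adjusted p = 0.379), while Tcp1 lay towards male cultures (0.16, adjusted p = 0.196). Dnajc9 stood at 73.4, 67.8, 66.6 and 72.9 FPKM in male libraries 1 to 4, and at 44.3, 60.4, 68.6 and 50.9 FPKM in female libraries 1 to 4 and overlapped through female 3 (log2 difference 0.34 ± 0.12 (SE), limma-trend adjusted p = 0.126). Dnajc7 and Dnajc18 were the 2 with an unadjusted p under 0.05 towards female cultures (-0.19 and -0.25, adjusted p = 0.158 and 0.214). Dnajb4 and Dnajc18 were named after their values were seen.

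**Figure D4:**
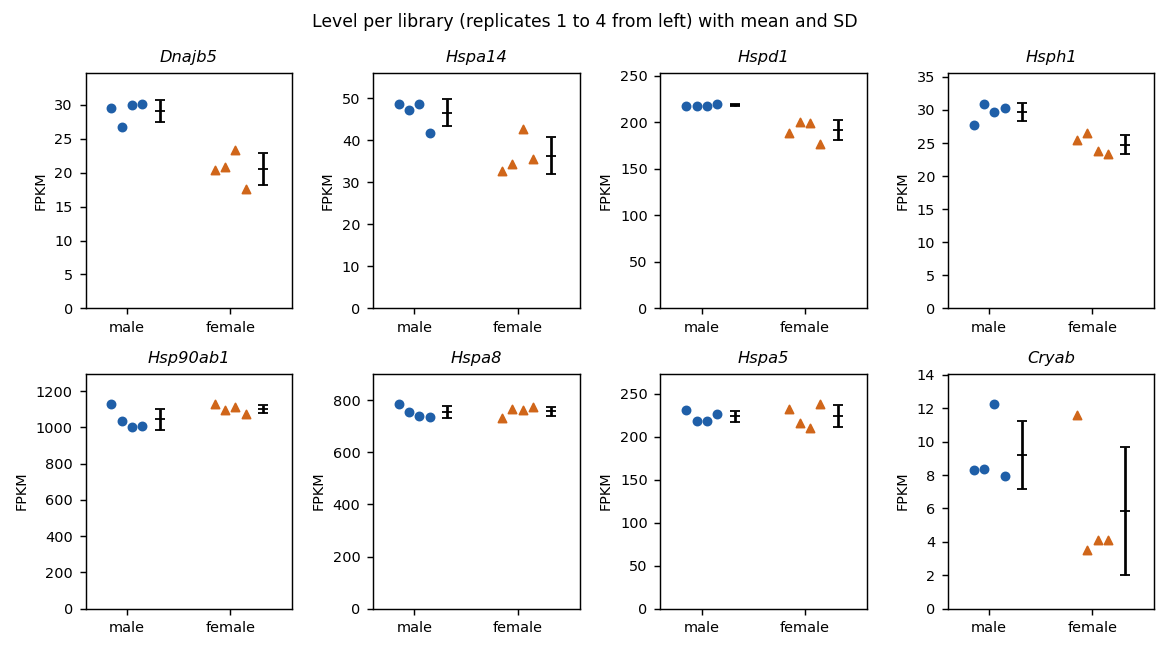
FPKM of 8 members in each library, male as circles and female as triangles, with mean and SD beside them, each axis from 0. Dnajb5, Hspd1 and Hsph1 do not overlap between the sexes, Hspa14 and Cryab overlap through 1 female library, Hsp90ab1 overlaps through male 1, and Hspa8 and Hspa5 overlap in several libraries of each sex.

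These counts depended on how libraries were scaled. When FPKM were rescaled to the same sum per library, 8 of 66 members passed (12.1%, beside 954 of 11732 genes or 8.13%), all higher in male cultures (Dnajb5, Hspa14, Hspd1, Tcp1, Dnaja1, Cct7, Dnajb4 and Dnajc9), and 54 of 66 had a positive difference. Over all genes the male-higher share of calls then moved from 52.1% to 80.5%, and the median log2 difference from -0.0038 to 0.071. FPKM sums were 648383 to 705322 in male and 675852 to 773919 in female libraries. The largest single gene, the mitochondrially encoded Mt-atp8, held 4.46% to 5.6% of the sum in male and 6.24% to 7.28% in female libraries, and its part in the shift was not tested.

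Other genes of the chaperone system, from 5 lists (74 rows tested), were tested in the same way. Of them 1 passed, beside 6.04% of all tested genes. It was higher in male cultures (3.14% of all genes). The gene was Stub1 (CHIP), the ubiquitin ligase that sends chaperone clients to the proteasome, at 166, 163, 156 and 128 FPKM in male libraries 1 to 4, and at 97.1, 107, 138 and 110.4 FPKM in female libraries 1 to 4 (log2 difference 0.44 ± 0.11 (SE), limma-trend adjusted p = 0.0438). It overlapped between the sexes and kept its call in 8 of 18 alternatives, with adjusted p from 0.00376 to 0.125. The call ended with any of male 1, male 2, male 3, female 1, female 2 or female 4 left out. Cytosolic co-chaperones (20 tested) had a median log2 difference of 0.046. At an unadjusted p under 0.05 were 5 (25%, beside 21.2% of all genes), 4 of them higher in male cultures (beside 1274 of 2393 over all genes). The next by p was Stip1 (HOP), which links HSP70 to HSP90, at 174 ± 5.72 against 152 ± 6.54 FPKM without overlap (log2 difference 0.19 ± 0.058 (SE), limma-trend adjusted p = 0.0783). Of 24 genes of ER folding and stress none passed, with a median of -0.0083 and 1 at an unadjusted p under 0.05. That gene was Sec61b, of the ER translocation channel, at 133 ± 11.8 against 111 ± 5.44 FPKM (0.25, adjusted p = 0.0795), followed by Derl2 (0.31, adjusted p = 0.253). Of 13 mitochondrial protein quality genes none passed, none was under an unadjusted p of 0.05 and the median was 0.011, with Hscb (-0.18) and Timm44 (0.12) first by p (adjusted p = 0.479 and 0.560). Prefoldin and CCT partner genes (14 rows) gave none past the threshold and 2 at an unadjusted p under 0.05. They were Pdcl (-0.27, adjusted p = 0.143) and 1 of 2 rows named Tbca, listed at 0 in all female libraries and at 1.33, 0, 5.19 and 2.37 FPKM in male libraries 1 to 4. That row passed the filter only through the male libraries, so its p supports nothing, and the other Tbca row stood at 334 ± 30.9 against 319.6 ± 12.1 FPKM (adjusted p = 0.693). The heat shock factor genes Hsf1 (7.20 ± 0.822 against 6.84 ± 1.08 FPKM) and Hsf2 (29.98 ± 4.11 against 30.98 ± 2.0 FPKM) had adjusted p of 0.831 and 0.828, and Hsf4 was below the filter.

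Whether partner chaperones vary together from culture to culture was examined for 5 pairs over the 8 libraries, on log2(FPKM + 1). None passed after adjustment over the 5. Hspa5 and Hsp90b1, the ER pair, had r = 0.306 (exact two-sided permutation p = 0.459, adjusted 0.459) and rho = 0.191 (exact permutation p = 0.665, adjusted 0.665), and r = 0.797 without female 3 and female 4. Tcp1 and Cct2 had r = 0.477 (exact permutation p = 0.231, adjusted 0.290) and rho = 0.548 (exact permutation p = 0.171, adjusted 0.285), and r = 0.253 without male 2 and male 3. Hspa8 and Hsp90aa1 had r = -0.552 (exact permutation p = 0.147, adjusted 0.290) and rho = -0.619 (exact permutation p = 0.115, adjusted 0.285), and r = -0.248 without male 1 and female 1. For Hspd1 with Hspe1 and Hsph1 with Dnajb1 the sexes form separate clusters in 1 gene of the pair, so no pooled r is given. As a description with no test, r was also taken over the 8 deviations from the mean of each sex. It was 0.895 for Tcp1 with Cct2, above the r over all libraries. It was 0.305 for Hspa5 with Hsp90b1, -0.549 for Hspa8 with Hsp90aa1, 0.105 for Hspd1 with Hspe1 and -0.0327 for Hsph1 with Dnajb1.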

How the data were processed

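The authors deposited FPKM per gene and library, per the file header. The submitters' processing notes name Trimmomatic and FastQC. The library kit was strand-specific, per the labels' protocols. For the aligner, the FPKM program, the build, the strand setting and reads shared between copies, nothing is given in the sources used here. Absolute depth is unknown, so no counting interval is given.

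Values were tested as log2(FPKM + 1) with limma 3.58.1 (R 4.3.3, trend and robust moderation) on the 11263 genes averaging 1 FPKM or more, with Benjamini-Hochberg adjustment and a threshold of 0.05. On simulated male against female data with 11263 genes, 37.3% of differences of 0.5, 81.8% of 1 and 94.8% of 2 (log2) were recovered, and 4.94% of calls were false. Each gene was drawn independently, with no effect shared by the genes of a library and no difference in depth. These rates therefore do not give the false share of the real calls. Relative depth came from the most common ratio of low values between libraries.

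Members and lists were chosen with earlier results of these data known. Classes and compartments follow textbook knowledge. Named were members past the threshold, a fixed set, in each class the highest member, the smallest p and the most variable with at least 5 FPKM, the 2 smallest p of each list, and up to 5 members at 0. Other members were named after their values were seen. Alternatives were other pseudocounts, filters, scalings and moderation, a replicate block, a depth covariate, a looser threshold and libraries left out.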

Additional observations from a re-analysis of the deposited data

Results flagged for a closer look

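Within a sex, 7 of 72 groups of 4 libraries of the named members held a library far from the other 3 for their range. By chance the rule would flag about 1 in 20 independent groups. That rate cannot be set against the 7 of 72, because some genes were named for their spread and all groups share the same libraries. Male 1 accounted for 3 of the 7. In male 1, Hspa9 was low at 49.8 FPKM (59.9 to 60.1 in the other male libraries), Cct4 was high at 204.4 FPKM (185 to 187) and Dnajc3 was high at 33.96 FPKM (23.2 to 24.1). Male 1 was the deepest library. Cryab was high in female 1, at 11.57 FPKM against 3.52 to 4.14 in the other female libraries, and in male 3, at 12.24 FPKM against 7.95 to 8.34. Female 1 was the shallowest library, with a relative depth of 0.303. Cct8 was high in female 2, at 188.0 FPKM (170.2 to 173). Hspd1 was high in male 4, at 219.7 FPKM, but the other male libraries lay between 217.5 and 217.7 FPKM, so the gap is small in absolute terms.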

How the results depend on the processing

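The count of 1 member past the threshold became 2 with a mean of at least 5 FPKM, 8 with TPM (a common sum per library), 0 with the depth covariate, 3 without male 1 and female 3, and 4 at an adjusted p of 0.1, and ranged from 0 to 3 with 1 library left out. It was 0 without male 3, 2 without male 1 (Dnajb5 and Dnajc7) or female 1 (Dnajb5 and Cryab) and 3 without female 3 (Dnajb5, Dnajc9 and Hspa14). The count of 680 over all genes became 397 with the replicate block, 367 with the depth covariate and 1149 at an adjusted p of 0.1, and ranged from 298 to 803 with 1 library left out (male 2 left out 314, male 3 298, male 4 364, female 1 401, female 4 316). The pathway lists' 1 call became 0 with no filter, the replicate block, no robust moderation or the depth covariate, 5 with TPM and 3 at an adjusted p of 0.1, and ranged from 0 to 2 with 1 library left out. It was 0 without male 1, male 3, female 1, female 2 or female 4 and 2 without male 4 or female 3. With TPM the log2 male over female ratio of the summed level moved from 0.0051 to 0.0859 for the cytosol and from 0.0115 to 0.0922 for the ER. For mitochondria it moved from 0.1626 to 0.2434, by less than the spread between libraries, and ranged from 0.1013 to 0.2345 with 1 library left out. The cause of these shifts was not tested. Same-numbered libraries deviated from their group means with r of -0.085, 0.077, -0.064 and 0.036 for numbers 1 to 4 over 11263 genes, so the numbers were not taken to pair them. Number 2 alone correlated best with its own partner from both sides. With the block Dnajb5 stayed past the threshold (log2 difference 0.49, adjusted p = 0.0473). Over 46 named genes and up to 17 alternatives, 709 of 781 values kept direction and side of the threshold, 44 changed sign while not past it, 16 newly passed and 12 no longer did, and no gene past the threshold changed sign. Absolute depth is unknown, so the counting error of members under 5 FPKM, such as Dnajc6, Dnajc28 and Dnajb3, cannot be given.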
